A study of Mus musculus with 20 samples.

Results

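The cytosolic ribosomal protein genes were followed in mouse liver after cadmium chloride (CdCl2) exposure. Members were the protein-coding genes of the deposited table whose symbol is Rpl or Rps followed by a number, together with the P-stalk genes Rplp0, Rplp1 and Rplp2 and the gene Rpsa. Symbols that start with Rps6k, which name kinases, were left out, and so were 10 matching genes listed as transcribed pseudogenes. The rule took 87 of the 21768 genes in the table. By symbol they comprise 43 genes of the large subunit, 31 of the small subunit, 3 of the P stalk, 9 copies or paralogues and Rps19bp1, which encodes a protein that binds Rps19 and is not itself a ribosomal protein. They lie on 19 chromosomes, with 14 of them on chromosome 7.

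The mice were wild type, and the strain is not given in the labels. Exposed mice drank water with CdCl2 at 100 mg/L. The input libraries, which measure RNA abundance, form 4 groups: exposed for 9 months (3 libraries), control at 9 months (2 libraries), exposed for 3 months (3 libraries) and control at 3 months (2 libraries, numbered 2 and 3 in the labels). A liver named below stands for its library. Another 10 libraries, whose titles lack the word input, were not analysed here. The labels do not say whether replicates are separate animals, so p-values measure only the spread between these samples. The labels give neither age nor batch, so months of exposure, age and any batch cannot be told apart between the 2 times.

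A cytosolic ribosome joins a small subunit, which reads the mRNA, to a large subunit, which forms peptide bonds, and each subunit holds ribosomal RNA and many small basic proteins. Most of these proteins are needed in equal number per ribosome, and their mRNAs are among the most abundant in a secretory tissue such as liver. Their mRNAs usually begin with a run of pyrimidines, the terminal oligopyrimidine (TOP) motif, through which mTORC1 signalling sets their translation and stability. The P stalk, made of Rplp0, Rplp1 and Rplp2, recruits elongation factors. A few members have paralogues with restricted or regulated use, such as Rpl22l1, whose mRNA is held down by Rpl22 protein in mouse cells, and Rps27l, a p53 target.

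Counts over genes ranged between 3958164 and 8912898 per library, and 12730 to 16519 genes were detected. Values below are CPM (each library's count scaled to a common total), adjusted with TMM factors unless stated. A count of 3, taken as the floor of a library, equals 0.337 to 0.758 CPM before this scaling. The 12 hepatocyte markers summed to 76353 to 117135 CPM per library. The 11 pancreas markers summed to 9099 CPM in 9-month control 2 and to 1769 CPM in 9-month exposed liver 1, with the other 8 libraries between 8.54 and 238 CPM. Kupffer cell markers summed to 287 to 624 CPM, endothelial markers to 335 to 454 CPM and stellate cell markers to 288 to 377 CPM. Erythroid markers summed to 31.6 to 152 CPM, proliferation markers to 18.9 to 64.0 CPM, cholangiocyte markers to 12.8 to 61.7 CPM, lymphocyte markers to 9.53 to 23.4 CPM and neutrophil markers to 0.529 to 9.89 CPM.

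Ribosomal protein mRNAs were abundant per length of transcript. Levels per kb use CPM by library totals, without TMM. Among the 83 members that passed the filter on low counts, the median level was 89.1 CPM per kb, with quartiles at 31.5 and 241 CPM per kb, against a median of 4.09 CPM per kb for all genes tested. Among the highest were Rpl7 at 940 CPM per kb, Rps2 at 681, Rps18 at 530, Rpl10 at 527 and Rps3a1 at 469. Rpl10 is a large-subunit protein that joins late in the cytoplasm, Rpl7 belongs to the same subunit, and Rps2, Rps18 and Rps3a1 sit in the small subunit. Highest and lowest tested members, Rpl7 and Rpl23, differed 198-fold in mean level per length. Reads of ribosomal protein genes can also match processed pseudogenes, and the treatment of such reads is not given in the sources used here, so the order of these levels is uncertain. It also depends on which transcript was taken: 35 members have several, and in 30 of these the second held over 90% of the count of the first. Transcript length enters as well: Rps15a, which has only 1 transcript, was counted on 5136 bases, against a median of 740 bases over the members.

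**Figure D1:**
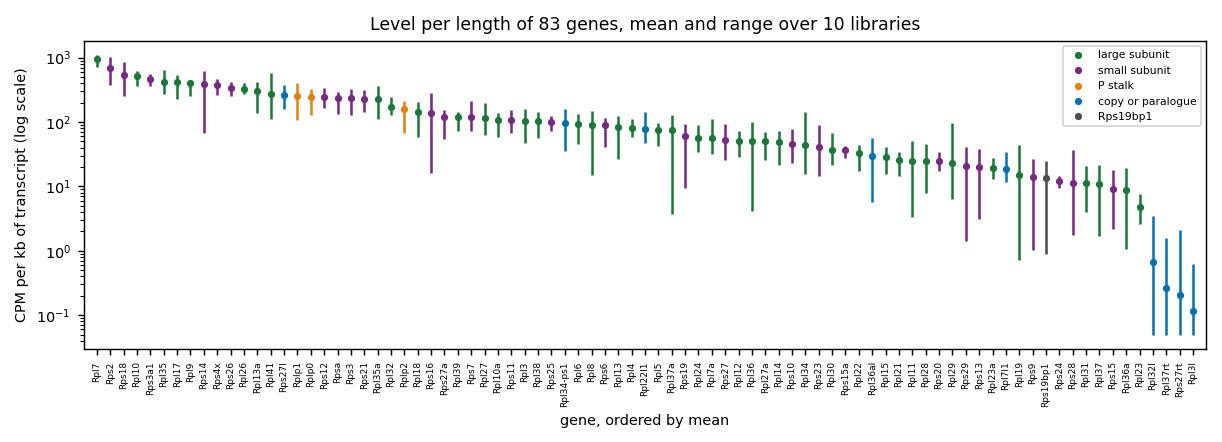
Mean level of 83 of the 87 genes in CPM per kb of transcript (log axis, points) with the lowest to highest of 10 libraries (lines), coloured by subunit or class and ordered by mean. Values below 0.05 are drawn at 0.05. Rpl7 leads at 940 CPM per kb, and the 4 untested copies stand at the right end below 1 CPM per kb.

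The 4 members that did not pass the filter were all copies or paralogues. Rpl32l averaged 0.662 CPM per kb, Rpl37rt 0.263, Rps27rt 0.208 and Rpl3l 0.114. Rpl3l encodes a paralogue of Rpl3 used mainly in heart and skeletal muscle. Its partner Rpl3 read 187, 187 and 170 CPM in livers exposed for 9 months and 148 and 233 CPM in their controls. At 3 months it read 139, 128 and 125 CPM in exposed livers, against 79.4 and 129 CPM in controls. Rpl3l itself reached 1.36 CPM in its highest library and was at 0 in 7 of the 10. Rpl36al stood above Rpl36a, at 29.7 against 8.88 CPM per kb. Rpl7l1, a relative of Rpl7, averaged 18.4 CPM per kb.

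Across the 10 libraries, the median standard deviation of log2(CPM + 1) was 0.41 over the tested members. Over the 9607 other genes whose mean CPM lies within the members' range it was 0.53, without matching for level and without a test. The steadiest were Rpl10, Rpl9 and Rpl26, with standard deviations of 0.18, 0.19 and 0.19. Rpl10 read 430, 513 and 432 CPM in 9-month exposed livers, 403 and 470 CPM in 9-month controls, 417, 406 and 346 CPM in 3-month exposed livers, and 335 and 420 CPM in 3-month controls. Rpl29, Rpl19 and Rpl37a varied most, with standard deviations of 1.30, 1.29 and 1.29.

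Rpl29, a large-subunit protein, was high in single libraries of different groups. It read 12.7, 116 and 10.9 CPM in 9-month exposed livers, 9.72 and 10.3 CPM in 9-month controls, 12.1, 7.36 and 46.0 CPM in 3-month exposed livers, and 46.3 and 7.73 CPM in 3-month controls. The 3 high libraries belong to 3 groups, and the other 7 libraries lie between 7.36 and 12.7 CPM. Rpl37a, another large-subunit protein, read 2.53 CPM in 3-month control 2 and 51.8 CPM in 3-month control 3. Rpl19 read 0.632 and 15.5 CPM in the same 2 controls.

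**Figure D2:**
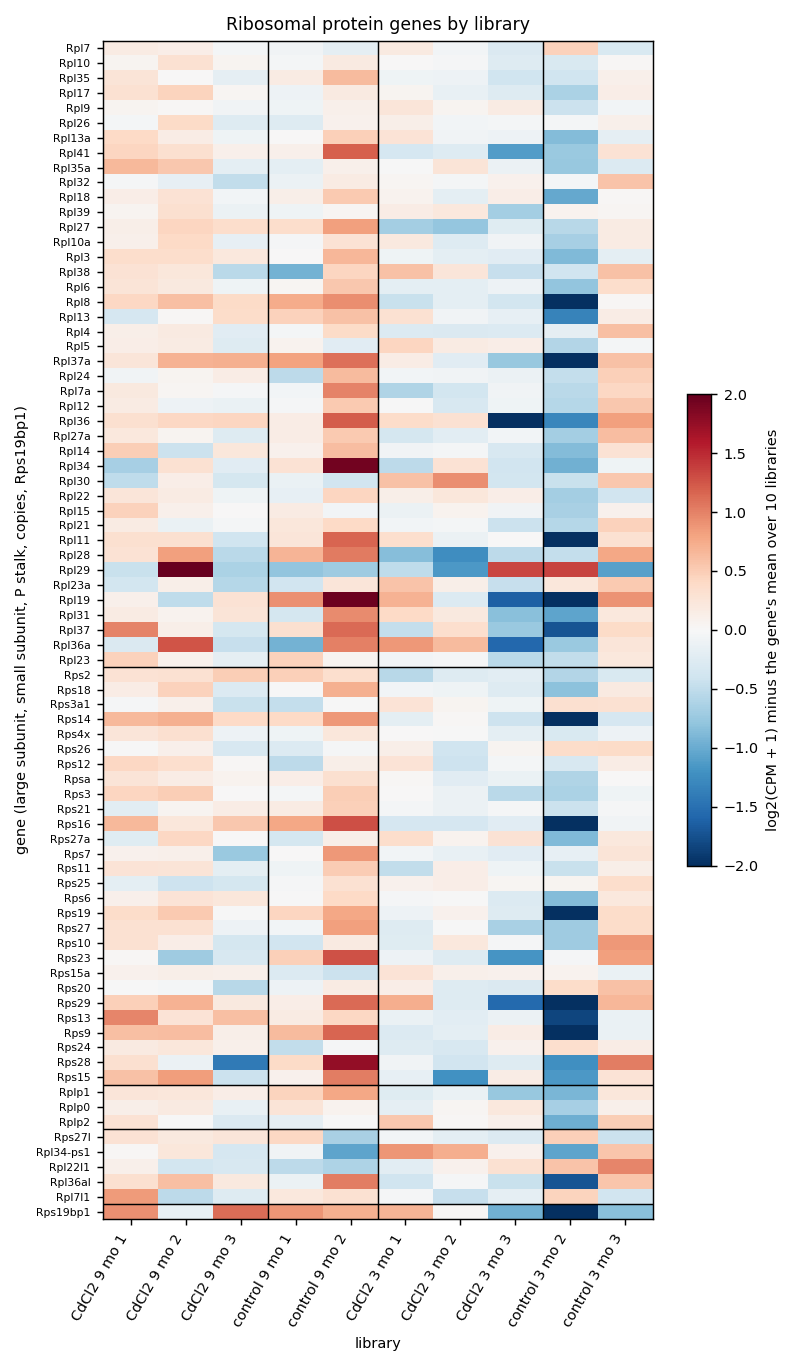
Of the 83 tested genes, 79 run down the page, grouped by subunit or class, and the 10 libraries run across. Colour gives log2(CPM + 1) minus the gene's own mean over the libraries, with values beyond 2 in either direction drawn at the end of the scale. The column of 3-month control 2 is mostly blue and that of 9-month control 2 mostly red, and over all 83 tested genes they hold the lowest value of 47 and the highest of 38.

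A library stood apart for these genes in each control group. The 3-month control 2 held the lowest value of 47 of the 83 tested members, against 26.7% of all genes tested. The 9-month control 2 held the highest value of 38 members, against 11.3% of all genes tested. The first had the fewest genes detected (12730) and the second the most (16519), and the second is also the library with 9099 CPM of pancreas markers. The part of detection depth or of pancreas RNA in these positions was not tested. In bulk liver RNA, fewer cells of a type and less RNA per cell cannot be told apart.

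Summed over all 87 genes, the level was 12216, 12606 and 10672 CPM in 9-month exposed livers and 10882 and 13263 CPM in 9-month controls. It was 11158, 10235 and 9771 CPM in 3-month exposed livers and 8589 and 11031 CPM in 3-month controls. On this TMM scale, the exposed and control ranges overlap at both times. The exposed mean was 0.98 of the control mean at 9 months and 1.06 of it at 3 months. Between times, the 9-month mean was 1.14 of the 3-month mean in exposed livers and 1.23 of it in controls, and the ranges overlap here too. With library totals in place of TMM, the ranges of both time comparisons separate, at ratios of 1.19 in exposed livers and 1.44 in controls. That scaling moved the median log2 fold change of all genes, from 0.004 to 0.068 in exposed livers and 0.06 to 0.288 in controls. As a share of counts over genes, the members took 1.29, 1.22 and 1.14% in 9-month exposed livers, 1.25 and 1.34% in 9-month controls, 1.07, 1.02 and 0.971% in 3-month exposed livers, and 0.746 and 1.06% in 3-month controls. Deposited TPM also scale for transcript length. In TPM the 87 genes summed to 11016, 11253 and 11079 in 9-month exposed livers, below 12242 and 13158 in 9-month controls. At 3 months the TPM sums were 9134, 9457 and 8976 in exposed livers, against 8067 and 10032 in controls, which overlap. In TPM, too, both 9-month groups lie above both 3-month groups. These TPM sums were not tested.

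**Figure D3:**
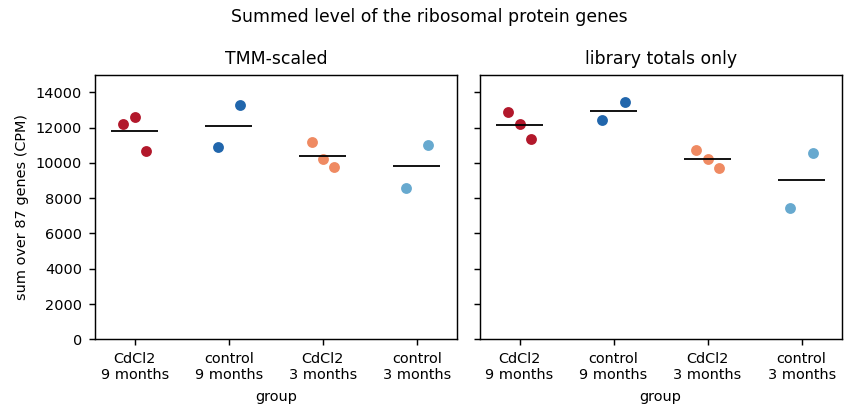
Sum of the 87 genes in CPM for each library (points) with the group mean (line), scaled with TMM (left panel) and by library totals only (right panel), both axes starting at 0. With TMM, the ranges of all compared groups overlap. By library totals, both 9-month groups lie above both 3-month groups.

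Both subunits kept a similar balance in every library. The large-subunit sum per kb divided by the small-subunit sum per kb was 1.08, 1.04 and 1.04 in 9-month exposed livers, 1.05 and 1.08 in 9-month controls, 1.14, 1.08 and 0.989 in 3-month exposed livers, and 1.07 and 1.04 in 3-month controls. The widest spread is within the 3-month exposed group, and no group stands apart.

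No ribosomal protein gene passed the threshold of 0.05 on the adjusted p of edgeR's quasi-likelihood test for cadmium against control at 9 months. The count was 0 of 83 members, beside 0% of the 14067 genes tested. At an unadjusted p of 0.05, no member was higher, beside 1.14% of all genes tested, and 2 were lower (Rpl34 and Rps23), beside 1.1%. The median log2 fold change was -0.12 over the members and 0.01 over all genes, and 27 of 83 members had a fold change above 0, beside 50.7% of all genes. In 6 members all exposed livers were above both controls, beside 10.3% of all genes, and in 12 they were below, beside 11.8%. Without the 2 libraries with the most pancreas RNA, the members' median had the opposite sign, at 0.04, without 9-month control 2 alone it was 0.12, and without 9-month control 1 alone -0.36. Summed Kupffer cell markers were 453 to 624 CPM in 9-month exposed livers, against 414 and 340.5 CPM in 9-month controls, with 4 of 12 higher and 0 lower without overlap. Summed erythroid markers were 56.5 to 97.0 CPM in exposed livers, against 102 and 152 CPM in controls, with 2 of 7 lower and 0 higher without overlap, and Hba-a2 at 0 in all libraries. Lymphocyte markers also separated, at 17.7 to 19.0 CPM in exposed livers and 9.72 and 9.53 CPM in controls, with 1 of 10 higher and Cd79a at 0 in all libraries. Their part in the members' values was not tested.

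Rps23, a small-subunit protein at the decoding centre, read 20.4, 11.8 and 15.7 CPM in 9-month exposed livers, against 28.3 and 49.6 CPM in 9-month controls. The groups do not overlap, and the log2 fold change was -1.29 ± 0.45 (SE) with an edgeR adjusted p of 1. Without 9-month control 2 it was -0.83. Rpl34 read 13.9, 28.2 and 19.2 CPM in exposed livers, against 27.8 and 88.6 CPM in controls, which overlap. Its log2 fold change was -1.51 ± 0.49, and -0.45 without 9-month control 2. Rpl11, which binds MDM2 when free of ribosomes, had a log2 fold change of -0.68 ± 0.58, and Rps7 one of -0.64 ± 0.33. Without 9-month control 2 these were -0.13 and -0.16, and without 9-month control 1 they were -1.07 and -0.99. On the higher side, Rps15a read 197, 201 and 199 CPM in exposed livers, against 153 and 138 CPM in controls, a log2 fold change of 0.45 ± 0.25 without overlap. Rps12 gave 0.44 ± 0.31 and Rpl34-ps1, a protein-coding copy by the table, 0.50 ± 0.47. Rps12 had 0.17 without 9-month control 1 and 0.78 without 9-month control 2, while Rpl34-ps1 had 1.10 and 0.055. The fold change of Rpl29, 2.21 ± 1.08, rests on 9-month exposed liver 2 and was 0.24 without it.

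At 3 months, 0 of 83 members passed the same test, beside 0.0498% of all genes tested, and the smallest adjusted p was 0.286, for Rpl22l1. At an unadjusted p of 0.05, 3 members were higher, beside 7.35% of all genes, and 3 were lower, beside 7.17%. The median log2 fold change was 0.04 over the members and 0.01 over all genes, with 46 of 83 above 0, beside 50.6% of all genes. In 8 members all exposed livers were above both controls, beside 13.9% of all genes, and in 8 they were below, beside 11.9%. This comparison turns on the 2 controls: the members' median was -0.24 without 3-month control 2 and 0.57 without 3-month control 3. Without control 3, which leaves 1 control assumed to vary like the other groups, edgeR called 11 members, all higher in exposed livers, beside 5.34% of all genes called higher, and the median of all genes was 0.32. Proliferation markers summed to 18.9 to 29.7 CPM in 3-month exposed livers, against 64.0 and 53.0 CPM in 3-month controls, with 3 of 8 lower and 1 higher without overlap. Pancreas markers summed to 8.54 to 24.3 CPM in exposed livers, against 33.5 and 238 CPM in controls, with 4 of 11 lower. Their part in the members' values was not tested.

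The paralogue pair Rpl22l1 and Rpl22 differed in opposite directions at 3 months without passing the test. Rpl22l1 read 34.9, 42.8 and 49.9 CPM in 3-month exposed livers, against 60.2 and 80.8 CPM in 3-month controls. Its partner Rpl22 read 82.5, 89.8 and 83.6 CPM in exposed livers, against 47.0 and 58.3 CPM in controls. Neither pair of groups overlaps. The log2 fold changes were -0.73 ± 0.29 for Rpl22l1 and 0.70 ± 0.28 for Rpl22, with edgeR adjusted p of 0.286 and 0.293. At 9 months Rpl22l1 read 43.6, 30.9 and 32.2 CPM in exposed livers, against 27.8 and 26.1 CPM in controls, a log2 fold change of 0.40 ± 0.30. Rpl22 read 90.6, 85.7 and 71.9 CPM in 9-month exposed livers, against 67.6 and 102 CPM in 9-month controls, which overlap.

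Per kb, Rpl22l1 over Rpl22 was 2.06, 1.55 and 1.92 in 9-month exposed livers, 1.76 and 1.09 in 9-month controls, 1.81, 2.04 and 2.56 in 3-month exposed livers, and 5.50 and 5.94 in 3-month controls. The 3-month controls are the high group, and the other 8 libraries lie between 1.09 and 2.56. Rps27l over Rps27 showed no such order, at 4.86, 4.56 and 6.35 in 9-month exposed livers, 6.86 and 1.74 in 9-month controls, 5.76, 4.36 and 6.58 in 3-month exposed livers, and 11.6 and 2.85 in 3-month controls. There each control group holds both a high and a low library. In every library, Rps27l exceeded Rps27 per length. Both ratios depend on the transcript taken. The transcripts counted for Rpl22 and Rps27 carry RefSeq names for non-coding variants, and a second variant held 99.8% and 98.1% of their counts.

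**Figure D4:**
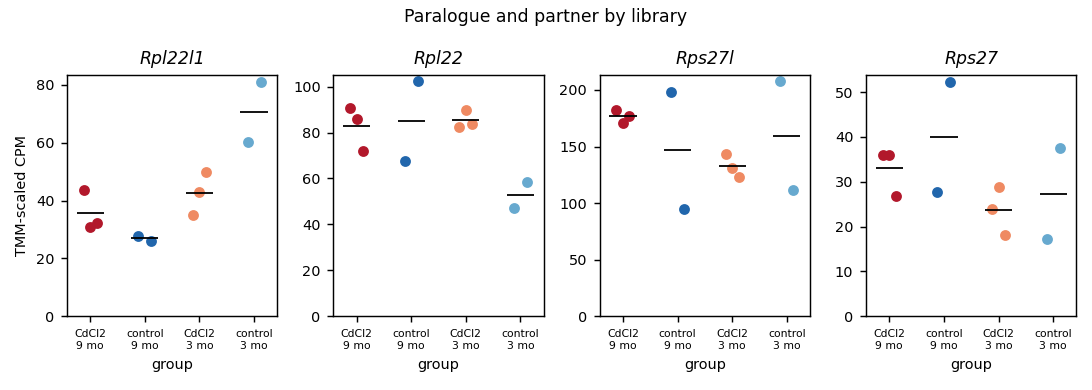
TMM-scaled CPM of Rpl22l1, Rpl22, Rps27l and Rps27 in each library (points) with the group mean (line), every axis starting at 0. Rpl22l1 is highest in the 3-month controls (60.2 and 80.8 CPM), where Rpl22 is lowest (47.0 and 58.3 CPM). Rps27l and Rps27 overlap between exposed and control livers at both times.

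Among other members at 3 months, Rps23 again read lower, at 18.6, 16.5 and 8.23 CPM in exposed livers, against 19.6 and 35.8 CPM in controls, a log2 fold change of -0.95 ± 0.45, and -0.44 without 3-month control 3. Rps20 had -0.61 ± 0.28 and Rpl4 -0.54 ± 0.29, both without overlap, and Rpl4 was at -0.087 without 3-month control 3. Rps14, which sits on the small-subunit platform, had 0.78 ± 0.41 with overlapping groups, and Rpl34-ps1 0.64 ± 0.46. Rpl34-ps1 was at 0.047 without 3-month control 2 and at 1.72 without 3-month control 3, where it is among the 11 called members (edgeR adjusted p = 0.0377). Rps14 read 173, 202 and 150 CPM in exposed livers, against 46.1 and 157 CPM in controls, and its fold change was 0.15 without 3-month control 2 and 1.92 without 3-month control 3.

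The P stalk and Rpsa, a small-subunit protein also known as the laminin receptor, did not pass for exposure at either time. Rplp0 read 349, 364 and 290 CPM in 9-month exposed livers, against 386 and 338 CPM in 9-month controls. It read 286, 331 and 374 CPM in 3-month exposed livers, against 203 and 347 CPM in 3-month controls. Its log2 fold changes were -0.11 ± 0.29 at 9 months and 0.26 ± 0.29 at 3 months, and the second was -0.067 without 3-month control 2. Rplp1 read 131, 129 and 121 CPM in 9-month exposed livers, against 150 and 189 CPM in 9-month controls. It was the 1 stalk gene of 3 whose groups separated at 9 months, beside 11.8% of all genes lower. At 3 months 0 of 3 separated. Rplp1 had -0.42 ± 0.33 at 9 months and -0.12 ± 0.34 at 3 months, Rplp2 had 0.11 ± 0.38 and 0.30 ± 0.38, and Rpsa had -0.07 ± 0.27 and 0.15 ± 0.27. All have edgeR adjusted p of at least 0.727.

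The difference between the cadmium effects at the 2 times was tested with the interaction term of the edgeR fit. The count was 0 of 83 members, beside 0% of all genes tested, and the smallest adjusted p was 0.476, for Rpl22l1, whose effect was 1.13 ± 0.42 log2 units higher at 9 than at 3 months. At an unadjusted p of 0.05, Rpl22l1 was higher, beside 4.61% of all genes, and Rpl34 lower, beside 4.81%. Differences were above 0 in 25 of 83 members, beside 48.9% of all genes, with a median of -0.15 over the members and -0.03 over all genes. This median was 0.18 without 3-month control 2 and -0.72 without 3-month control 3, where edgeR called 9 members, all lower, beside 2.86% of all genes called lower, and the median of all genes was -0.38. The other positive differences with the largest size were Rpl29 (2.51 ± 1.43), Rps24 (0.82 ± 0.42) and Rps27l (0.54 ± 0.48). On the negative side stood Rpl34 (-1.81 ± 0.71), Rpl11 (-1.25 ± 0.83), Rps16 (-1.10 ± 0.70) and Rpl13 (-0.94 ± 0.55). Without 3-month control 2 and without 3-month control 3, Rpl11 had -0.47 and -3.27, Rps16 had -0.34 and -2.88, Rpl13 had -0.38 and -1.90, and Rps27l had 0.013 and 0.91. Rpl34 had -0.77 without 9-month control 2, and Rpl29 had 0.53 without 9-month exposed liver 2 and 0.72 without 3-month control 2. Rps24 read 39.5, 40.7 and 37.2 CPM in 9-month exposed livers, against 24.3 and 34.2 CPM in 9-month controls. It read 28.8, 27.5 and 36.8 CPM in 3-month exposed livers, against 43.8 and 38.5 CPM in 3-month controls. Its groups separate at both times, higher in exposed livers at 9 months and lower at 3 months, without passing the test.

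In exposed livers, 9 months against 3 months gave a median log2 fold change of 0.23 over the members and 0.00 over all genes. No member passed by edgeR, beside 0% of all genes tested, and the smallest adjusted p of a member was 0.960. Proliferation markers summed to 38.8 to 52.6 CPM in 9-month exposed livers, against 18.9 to 29.7 CPM in 3-month exposed livers, with 3 of 8 higher and 0 lower without overlap, and their part was not tested. At an unadjusted p of 0.05, 5 members were higher, beside 2.5% of all genes, and 0 were lower, beside 2.46%. Fold changes were above 0 in 62 of 83 members, beside 50.3% of all genes. In 19 members all 9-month livers were above all 3-month livers, beside 7.23% of all genes, and in 3 they were below, beside 6.77%. The median stayed between 0.15 and 0.29 in each of the 22 alternatives, which include leaving out each library.

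Rps2, the second most abundant member per length, read 785, 797 and 905 CPM in 9-month exposed livers, against 437, 538 and 558 CPM in 3-month exposed livers. The groups do not overlap, with a log2 fold change of 0.70 ± 0.23 and an edgeR adjusted p of 0.960. Rpl27 read 86.6, 107 and 102 CPM at 9 months, against 49.4, 46.0 and 67.3 CPM at 3 months, a log2 fold change of 0.86 ± 0.28 with the same adjusted p. Rpl41, the shortest ribosomal protein, had 0.82 ± 0.36, and Rpl8 had 0.81 ± 0.39. Rps14 had 0.78 ± 0.36 and Rps16 0.79 ± 0.44, both without overlap. Lower values were given by Rpl30 (-0.73 ± 0.41, and -0.43 without 3-month exposed liver 2), Rpl34-ps1 (-0.62 ± 0.41) and Rps25 (-0.41 ± 0.23). Rpl29 had 1.09 ± 0.88, which was -0.88 without 9-month exposed liver 2.

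In controls, 9 months against 3 months gave the only member that edgeR called in these 5 comparisons, Rpl22l1, which was lower. Calls in either direction took 1.89% of all genes tested, and lower calls 0.96%. It read 27.8 and 26.1 CPM in 9-month controls, against 60.2 and 80.8 CPM in 3-month controls. The log2 fold change was -1.39 ± 0.33, with an edgeR adjusted p of 0.0498 just under the threshold. In exposed livers its log2 fold change over the same interval was -0.26 ± 0.26, and the interaction above, which is the test of that difference, did not pass. DESeq2 called Rpl22l1 as lower (adjusted p = 0.00632) and 6 further members as higher, namely Rpl34, Rpl8, Rps14, Rps16, Rps19bp1 and Rps2 (DESeq2 adjusted p of 0.00934 to 0.0348), beside 4.5% of all genes called higher and 5.07% lower by DESeq2. The call of Rpl22l1 was lost with TMM factors computed without the members, with library totals, and on leaving out any exposed library or either 9-month control, among other settings. Calls over all genes also fell on leaving out 1 exposed library, from 1.89% to between 0.00725% and 0.814%.

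Most other members had fold changes above 0 in controls. At an unadjusted p of 0.05, 13 members were higher, beside 9.73% of all genes, and 1 was lower, beside 10.4%. The median log2 fold change was 0.44 over the members and 0.06 over all genes, and 60 of 83 were above 0, beside 52.1%. In 25 members both 9-month controls were above both 3-month controls, beside 26.1% of all genes, and in 7 they were below, beside 20.1%, so the share that separated upward is near that of all genes. The median was 0.11 without 3-month control 2 and 0.86 without 3-month control 3, where edgeR called 26 members, 25 of them higher, beside 8.62% of all genes called higher, and the median of all genes was 0.39. Erythroid markers summed to 102 and 152 CPM in 9-month controls, against 31.6 and 59.2 CPM in 3-month controls, with 3 of 7 higher and 0 lower without overlap, and Hba-a2 at 0. Proliferation markers summed to 39.5 and 28.5 CPM in 9-month controls, against 64.0 and 53.0 CPM in 3-month controls, with 2 of 8 lower. Lymphocyte markers summed to 9.72 and 9.53 CPM in 9-month controls, against 23.4 and 16.3 CPM in 3-month controls. Of 10 lymphocyte markers, 1 was lower and 1 higher without overlap, with Cd79a at 0. Neutrophil markers summed to 2.21 and 0.529 CPM in 9-month controls, against 3.79 and 5.50 CPM in 3-month controls. Of 5 neutrophil markers, 1 was lower and 0 higher without overlap, with Camp at 0. Hepatocyte markers overlapped, at 76353 and 117135 CPM in 9-month controls, against 85176 and 89104 CPM in 3-month controls. The part of any of these in the members' values was not tested.

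Rps16 read 120 and 173 CPM in 9-month controls, against 11.6 and 67.2 CPM in 3-month controls, a log2 fold change of 1.89 ± 0.56. Rps14 read 263 and 362 CPM in 9-month controls, against 46.1 and 157 CPM in 3-month controls, a log2 fold change of 1.62 ± 0.45. Without 3-month control 2 and without 3-month control 3, Rps16 had 1.13 and 3.67, and Rps14 had 0.99 and 2.77. Rpl8, a core protein of the large subunit, read 112 and 128 CPM in 9-month controls, against 15.2 and 67.7 CPM in 3-month controls. For these 3 genes 3-month control 2 is the lowest of all 10 libraries, and control 3 also lies below both 9-month controls. Rps2 read 898 and 815 CPM in 9-month controls, against 429 and 521 CPM in 3-month controls, a log2 fold change of 0.85 ± 0.28. Rps19bp1 read 16.6 and 14.7 CPM in 9-month controls, against 0.843 and 4.33 CPM in 3-month controls.

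**Figure D5:**
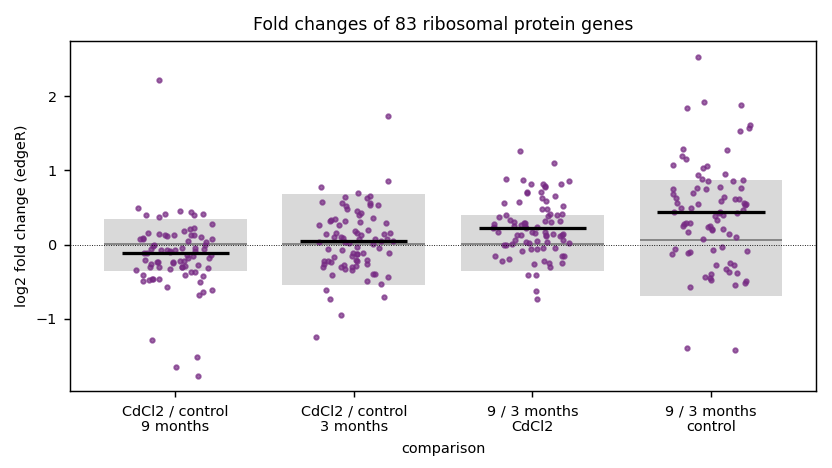
Log2 fold change of each of the 83 tested genes (points) in 4 comparisons, with the members' median (black line). The grey box spans the middle quartiles of all 14067 genes tested and the grey line is their median. The members' median is -0.12 and 0.04 for exposure at 9 and at 3 months, and 0.23 and 0.44 for time in exposed livers and in controls. Comparisons share libraries, so they are not independent.

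Promoters and transcript starts were read for the members from RefSeq (GRCm38.p6), in windows of 250 bases before to 50 after each start, of which 66 of 87 members have one. A run of at least 8 C or T bases within 50 bases of the start, on the coding strand, was found in 53 of 66 members (80.3%), against 39.3% of 27025 genes. The letters CCGGAAG, searched on both strands, were found in 25 members (37.9%), against 9.93% of genes. AAGATGG was found in 10 (15.2%), against 7.28%, and TATAAA in 8 (12.1%), against 15.7%. Matches were counted for each motif on its own, whether or not they overlap another, and a match is only a description of the letters.

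The stretches below are shown for the paralogue pairs and for Rps2 and Rps16, 2 small-subunit genes whose groups separated in both time comparisons. Each runs from 50 bases before to 20 bases after the RefSeq start on the coding strand, and capitals mark runs of at least 6 C or T bases. The RefSeq start and the start of the counted transcript differ by 64 bases for Rpl22l1 and by 10 for Rps27l, and coincide for the others.
Rpl22l1: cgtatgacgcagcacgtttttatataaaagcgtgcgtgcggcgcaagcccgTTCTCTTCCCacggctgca
Rpl22: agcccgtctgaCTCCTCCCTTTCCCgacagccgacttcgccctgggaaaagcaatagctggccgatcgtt
Rps27l: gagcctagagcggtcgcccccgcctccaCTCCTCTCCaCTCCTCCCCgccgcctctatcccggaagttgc
Rps27: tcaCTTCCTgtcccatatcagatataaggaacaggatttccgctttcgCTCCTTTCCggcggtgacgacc
Rps2: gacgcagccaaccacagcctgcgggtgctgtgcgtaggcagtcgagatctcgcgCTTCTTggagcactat
Rps16: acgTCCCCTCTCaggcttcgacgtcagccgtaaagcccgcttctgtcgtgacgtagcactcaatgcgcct
Rpl22l1 and Rpl22 lie at chr3:28805458-28805527 and chr4:152325676-152325745 on the plus strand. Rps27l lies at chr9:66946036-66946105 on the plus strand and Rps27 at chr3:90213629-90213698 on the minus strand. Rps2 lies at chr17:24720013-24720082 and Rps16 at chr7:28350639-28350708, both on the plus strand. The longest run in Rps2 is 6 bases, against 14 in Rpl22.

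Other genes of the translation pathway were counted from 4 lists. No member of any list was called by edgeR for exposure at 9 months, for exposure at 3 months, for their difference or for time in exposed livers. For exposure at 3 months, the median log2 fold change was -0.44 over 39 ribosome biogenesis genes, with 11 above 0, and -0.25 over 26 genes of mTORC1 and TOP control, beside 0.01 over all genes. Of the biogenesis genes, 12 were lower and 3 higher in exposed livers without overlap, beside 11.9% and 13.9% of all genes. The 3-month control 3 was the highest library for both lists. Biogenesis genes summed to 1080 CPM in it and to 826 CPM in 3-month control 2, with the other libraries between 692 and 781 CPM. The mTORC1 list summed to 2355 CPM in 3-month control 3, with the other 9 libraries between 1090 and 1388 CPM. In that library Ddit4, an inhibitor of mTORC1 signalling, read 329 CPM and the translation repressor Eif4ebp3 441 CPM, against 0 and 21.7 CPM in 3-month control 2. Without 3-month control 3 the medians were 0.27 for biogenesis and 0.19 for the mTORC1 list, beside 0.32 over all genes. Without 3-month control 2 they were -0.74 and -0.21, beside 0.10 over all genes. Among biogenesis genes, nucleolin (Ncl) had -0.30 ± 0.34 and the maturation factor Tsr1 -0.48 ± 0.27. Of the mTORC1 list, the translation repressor Eif4ebp2 had 0.55 ± 0.27 and Larp4, which binds poly(A) tails, -0.55 ± 0.30. The median was -0.08 over 32 translation factors and TOP mRNAs. Their sum was 6742 to 7325 CPM in 3-month exposed livers, against 7654 and 8447 CPM in 3-month controls. Without overlap, 7 of them were lower and 0 higher, beside 11.9% and 13.9% of all genes. Eif4g2, an initiation factor for cap-independent translation, read 776, 658 and 777 CPM in 3-month exposed livers, against 1375 and 1193 CPM in 3-month controls, and did not pass (-0.80 ± 0.25). Eef1a1, the elongation factor that brings aminoacyl-tRNA to the ribosome, read 1986 to 2333 CPM in every library. Of the ubiquitin-fused genes, Rps27a, itself a member, had log2 fold changes for exposure of 0.18 ± 0.34 at 9 months and 0.48 ± 0.35 at 3 months. For time in controls, 1 of 32 translation-list genes was called, the histone chaperone Nap1l1, with -1.71 ± 0.29 and an edgeR adjusted p of 0.0272. Lower calls took 0.96% of all genes tested. The median of this list was -0.29, beside 0.06 over all genes and 0.44 over the members, with 14 above 0 and 18 below. Without overlap, 14 of the list were lower and 5 higher, beside 20.1% and 26.1% of all genes.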

How the data were processed

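Unnormalised read counts of each library were deposited in 1 table, with 1 line for each of 79884 RefSeq transcripts. Deposited TPM stand beside them, per the file headers, and served here to recover transcript lengths and for a sum over the members. From the submitters' processing notes come the tool names TopHat2 2.0.13, bcl2fastq and MACS2 2.1.0.20151222 and the builds hg19, mm10 and rn6, with no roles. How reads were counted, whether by strand and on which annotation, is not given in the sources used here. The table's 12 columns of 6 libraries that match no sample were not used.

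Each gene took its transcript with the highest count over the 10 input libraries, because isoforms share reads. After filterByExpr, 14067 genes remained, and edgeR 4.0.16 (R 4.3.3) fitted their TMM-scaled counts with 1 quasi-likelihood model over 4 groups. Tests were two-sided with Benjamini-Hochberg adjustment over all genes and a threshold of 0.05. Fold changes are log2. Their SE is the absolute log2 fold change divided by the square root of the quasi-likelihood F. DESeq2 1.42.0, limma 3.58.1 voom and other filters, scalings and libraries were alternatives. Python 3.11.15 with pandas 2.3.3 and matplotlib 3.10.9 made the summaries.

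Members and lists were chosen with earlier results of these data known. Named by rule were the 6 highest and 4 lowest members per length, the P stalk, Rpsa, paralogues with partners, Rps19bp1, the 3 most and 3 least variable, and per comparison up to 10 called members per direction or, where none passed, the 4 with the largest fold change at a mean of at least 20 CPM. From each pathway list up to 4 called genes or the 2 with the highest count were named. A few genes that the rule names are not reported here. Other members were named after their values were seen. Marker lists for Kupffer cells, lymphocytes, neutrophils, endothelium, stellate cells, cholangiocytes, erythroid cells and proliferation were also summed per library.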

Additional observations from a re-analysis of the deposited data

How the results depend on the processing

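For exposure at 3 months, the count of members called stayed at 0 in 20 of 21 alternatives and was 0 to 11 on leaving out 1 library, while the members' median log2 fold change was -0.24 to 0.57. Without the low-count filter, calls in either direction took 0.362% of all genes for exposure at 9 months and 0.992% for the difference of the effects. Medians for exposure at 9 months were -0.36 to 0.12 on leaving out 1 library. The count of members called there was 1 (Rpl29) without that filter and otherwise 0. For the difference of the effects it was 1 (Rpl29) without that filter and 0 to 9 on leaving out 1 library, all 9 lower and found without 3-month control 3, with medians of -0.72 to 0.18. For time in controls it was 7 by DESeq2 (6 higher and Rpl22l1 lower, beside 9.57% of all genes called) and 8 without the filter (7 higher and Rpl22l1 lower, beside 5.12%). It was 0 with library totals and with TMM factors without the members, beside 2.16% and 1.89% of all genes called. It was also 0 with summed transcripts, with voom and with the comparison's libraries alone, where 0% of all genes were called. Without the 2 libraries richest in pancreas RNA it was 0, beside 0.00659% of all genes. On leaving out 1 library it was 0 to 26, with medians of 0.11 to 0.86. For time in exposed livers it was 0 in all 22 alternatives, among them the fit without both 3-month controls, which was added after seeing the data. Signs turned for Rpl29 over time in exposed livers (1.09 in the fit of all libraries, and -0.88 to 2.26 on leaving out 1), for Rplp0 at 3 months (-0.067 to 0.70) and for Rpl22 at 9 months, where the log2 fold change of -0.04 became 0.21 without the 2 pancreas-rich libraries and was -0.30 to 0.28 on leaving out 1. The cause was not tested.

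With the replicate number as a block, 0 members were called in each comparison, beside 0 to 0.0213% of all genes. The call of Rpl22l1 over time in controls was thus lost (-1.33), beside 0.00711% of all genes called there. The members' medians were 0.07 and -0.13 for exposure at 3 and at 9 months. The labels do not say that numbers pair samples. Deviations of same-numbered libraries correlated at -0.164 to 0.010. With 2 controls per time, the controls' deviations from their mean mirror each other, so these correlations cannot show whether numbers pair samples. With library totals in place of TMM, the median of all genes went from 0.011 to 0.115 for exposure at 3 months. It went from -0.027 to -0.195 for the difference and from 0.06 to 0.288 for time in controls. With 2 or 3 libraries a group, a missed threshold does not show that values are alike.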
